A study of Mus musculus with 6 samples.

Results

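Long intergenic noncoding RNAs (lincRNAs) are spliced or unspliced transcripts with no long reading frame, transcribed from loci of their own between protein-coding genes. Some act in the nucleus as scaffolds of RNA-protein bodies, some act in the cytoplasm by binding proteins or microRNAs, and others are best known as the precursors of microRNAs or small nucleolar RNAs. In neural progenitors several of them mark regional identity or the step from dividing cell to neuron. The 78 lincRNAs described here were all rows of the deposited table with the biotype lincRNA or lncRNA and at least 600 counts summed over the 6 libraries, leaving out chromosomes X and Y and H19, Meg3, Rian, Mirg and Dlx6os1. They were 78 of 27372 named genes and of 1843 rows with such a biotype, while 1733 autosomal rows of that biotype fell below the minimum.

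The study compared bulk RNA-seq libraries of neural progenitor cells taken from mice at postnatal day 7 and grown as neurospheres, in proliferation medium with EGF and bFGF, until culture day 7. The 3 control libraries carry the genotype WT. The other 3 carry the genotype Sirt6 knockout, described in the series design as a conditional knockout of Sirt6, which encodes a nuclear deacylase acting on histones. The labels state neither the Cre line nor whether each library came from its own mouse or culture. Every p-value therefore measures only how these samples vary, and an unknown part of that variation may be technical. Library totals ran from 17198852 to 18297275 counts.

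Sirt6 itself was not lower in the knockout-labelled libraries. Its counts were 380, 293 and 260 in controls 1 to 3, and 474, 492 and 442 in the knockout-labelled libraries. Its log2 fold change was 0.61 with a standard error (SE) of 0.19, which did not pass edgeR's test over all genes (adjusted p = 0.998). Counts per gene do not show whether Sirt6 function was lost, and that was not tested. Every direction below is therefore given by the label of the libraries. The libraries also differed in sex-linked transcripts. The summed CPM (counts scaled to library size) of 4 Y-linked genes was 67.5, 234 and 0 in controls 1 to 3 and at most 0.755 in the knockout-labelled libraries. The X-linked RNA Xist stood at 1848, 0.485 and 2068 CPM in controls and 3395, 3088 and 2274 CPM in the knockout-labelled libraries. Controls 2 and 3 thus differed in both, so the controls were not all repeats of a single culture. Of cell types a neurosphere should lack, the summed CPM of microglial markers stayed at or below 0.516, that of mesenchymal markers at or below 0.956 and that of endothelial markers at or below 8.01 in every library, while that of neural stem cell markers ran from 3876 to 6326. In bulk libraries, fewer cells of a type and less RNA per cell cannot be told apart.

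The label "intergenic" did not hold for all of the list. In the table's own coordinates 7 of the 78 overlapped a protein-coding gene. Counting genes of every kind, 36 overlapped another gene and 42 overlapped none. The 36 include overlaps with pseudogenes, with other noncoding genes and with small RNAs inside their own hosts, such as Mir9-3 in Mir9-3hg. Of 61 lincRNAs matched to RefSeq, 51 are lncRNAs there and 9 are protein-coding, among them Zfp469, which encodes a zinc finger protein, 1810058I24Rik, D930016D06Rik (Thoc2l in RefSeq) and Gm38399 (a synonym of Nav1). The libraries were made with a kit that does not mark strand, so reads of an exon shared with another gene, on either strand, cannot be assigned to one of them.

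Several of the most abundant lincRNAs carry short sequences for which they are known, and these are shown because they say what the RNAs measured below are. Gm3764, C130071C03Rik and Mir9-3hg are the hosts of the 3 mouse miR-9 hairpins, Mir9-1 (chr3:88215598-88215686), Mir9-2 (chr13:83738814-83738885) and Mir9-3 (chr7:79505264-79505353), all on the plus strand of GRCm38 and all on the strand of their host. The hairpins of Mir9-1 and Mir9-3 lie in introns of their hosts in GENCODE M21 and that of Mir9-2 in an exon. The microRNA miR-9 is abundant in the developing brain and restrains neural progenitor proliferation. In the RefSeq hairpins below, capitals mark miR-9-5p and then miR-9-3p, which are identical in all 3, so that only the loops and the flanks differ between the hosts.
Mir9-1: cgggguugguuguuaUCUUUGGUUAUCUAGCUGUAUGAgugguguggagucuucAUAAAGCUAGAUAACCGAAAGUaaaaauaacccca
Mir9-2: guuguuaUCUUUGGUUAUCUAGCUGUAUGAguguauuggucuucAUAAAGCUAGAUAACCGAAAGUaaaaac
Mir9-3: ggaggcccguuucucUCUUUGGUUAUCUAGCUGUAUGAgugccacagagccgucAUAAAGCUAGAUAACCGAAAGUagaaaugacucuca
In the mature forms, capitals mark the seed, bases 2 to 8 from the 5′ end.
mmu-miR-9-5p: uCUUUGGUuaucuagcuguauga
mmu-miR-9-3p: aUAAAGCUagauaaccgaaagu

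Miat, also called Gomafu, is retained in the nucleus of neurons and carries repeats that bind the splicing factor SF1. Its 9163-nucleotide transcript holds the motif TACTAAC 6 times on its own strand. The search ran over the longest transcripts of 1832 lincRNAs of the table, of which 4.53% held the motif at least once and 1, Miat, held it 5 or more times. The stretches below, from chr5:112217309-112217360 and chr5:112216752-112216812 on the minus strand (GRCm38, GENCODE M21), carry 5 of the 6 copies, in capitals.
Miat, copies 2 and 3: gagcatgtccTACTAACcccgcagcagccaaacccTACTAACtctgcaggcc
Miat, copies 4 to 6: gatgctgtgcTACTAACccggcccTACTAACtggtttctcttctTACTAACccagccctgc

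2900097C17Rik is Norad in RefSeq, a cytoplasmic RNA best described in human cells, where it binds Pumilio proteins. Its single exon of 4915 nucleotides held the Pumilio motif TGTANATA 11 times, the most of the 1832 lincRNAs searched, of which 15.6% held it at least once and 7 held it 5 or more times. The closest pair, in capitals, lies at chr2:156390510-156390550 on the minus strand.
2900097C17Rik: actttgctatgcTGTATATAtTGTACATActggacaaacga
1700020I14Rik, Oip5os1 in RefSeq and known as Cyrano, holds a near-complete site for miR-7 that directs the decay of that microRNA in mouse brain. The site lies at chr2:119602137-119602161 on the plus strand. Capitals mark the bases complementary to miR-7a-5p, 11 opposite bases 13 to 23 of the microRNA and 8 opposite its first bases. Of the 1832 lincRNAs, 280 held the match to the seed (15.3%) and only 1700020I14Rik held both matches. Capitals in the microRNA mark its seed.
1700020I14Rik: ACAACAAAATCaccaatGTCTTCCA
mmu-miR-7a-5p: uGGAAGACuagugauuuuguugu

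The levels of the 78 lincRNAs were very uneven. Their mean over the 6 libraries ran from 5.64 CPM (4930570G19Rik) to 1502 CPM (Gm42047) with a median of 15.2 CPM, and 7 exceeded 100 CPM while 52 were under 20 CPM. Gm42047, Malat1 and Gm3764 together made up 65.1% of all counts in the list. Per kilobase of annotated exon, available for 77 of the 78, Gm42047 (266 CPM per kilobase), Malat1 (213.5) and Gm3764 (133) again came first, followed by 2900097C17Rik (56.4), Snhg6 (31.0), Epb41l4aos (26.5), C130071C03Rik (25.1) and Mir9-3hg (24.8). The first place of Gm42047 rests on 3 high libraries, since in controls 1 and 2 and library 1 labelled knockout its CPM, 366, 329 and 579, was below that of both Malat1 and Gm3764. C130071C03Rik and Mir9-3hg, at 25.1 and 24.8, were far closer than the spread between libraries. Neat1, the longest of the single-exon RNAs, was last at 0.921 CPM per kilobase.

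**Figure D1:**
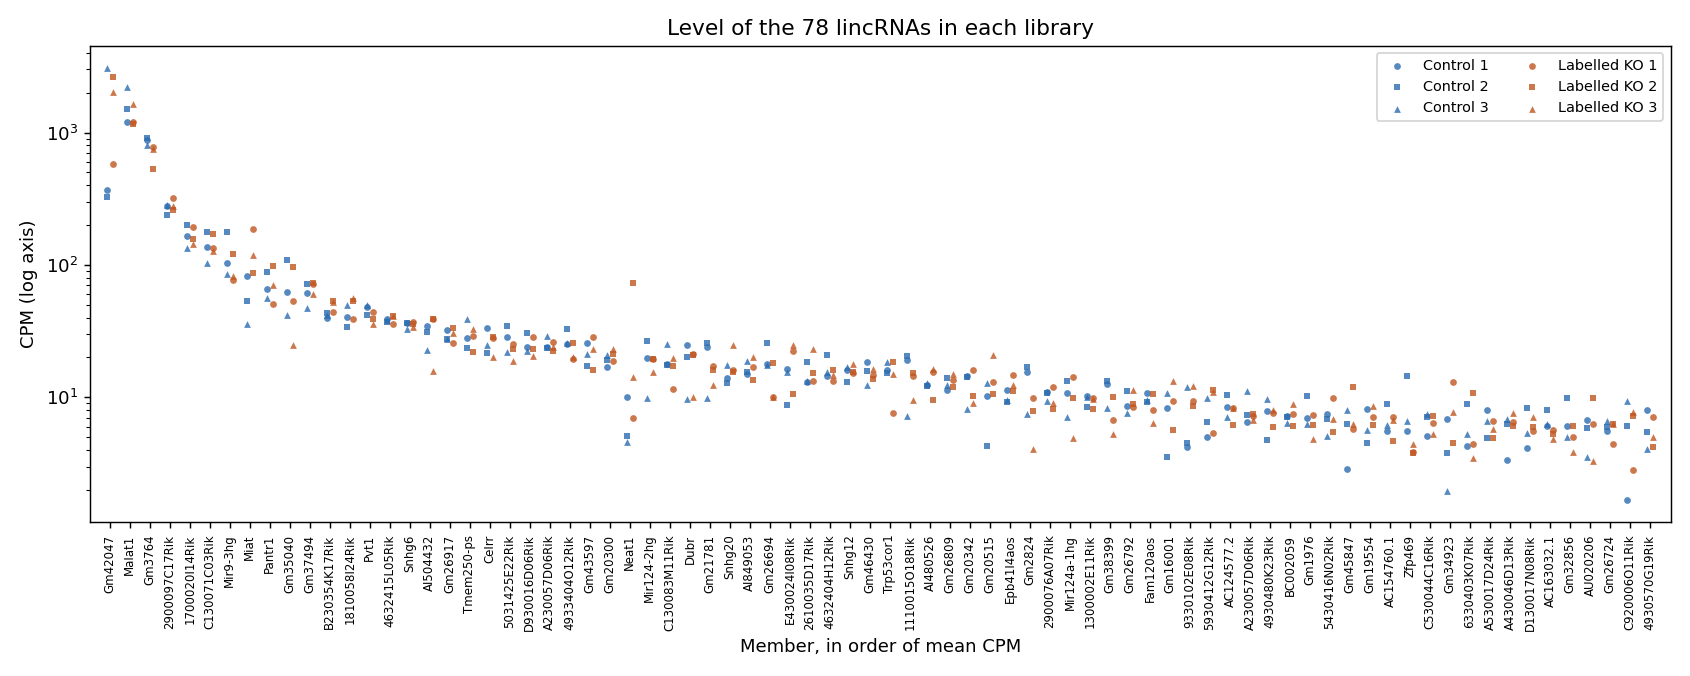
CPM of each of the 78 lincRNAs in the 6 libraries, on a log axis, in order of mean CPM. Blue is control, orange is labelled knockout (KO), and circles, squares and triangles are replicates 1, 2 and 3. Most lincRNAs lie under 20 CPM with a median ratio of the highest to the lowest library of 1.90 over the list, and Gm42047 and Neat1 span 9.44-fold and 15.9-fold.

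The members were selected on their counts summed over both groups, so their levels are a description, and the group difference was not used. Just inside the minimum lay 4930570G19Rik with 601 counts, C920006O11Rik with 615 and Gm26724 with 622, and just outside lay Gdap10 with 598, Gm7967 with 571 and 4930516B21Rik with 565. In 8 of the 78 the sum of one group was under 300 counts, the lowest being 212, and the lowest count of any lincRNA in any library was 29. All 78 passed edgeR's filter on low counts.

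Few of the lincRNAs differed between the groups beyond the spread of the libraries. Of the 78, edgeR's quasi-likelihood test called 0 at an adjusted p under 0.05, against 0 of the 15087 genes tested (0.0%), and 3 at an unadjusted p under 0.05, against 3.47% of all genes. Miat and Neat1 were the 2 higher at that unadjusted level (all genes, 1.98%) and Zfp469 the 1 lower (all genes, 1.5%). DESeq2 and limma-voom also called 0 of the 78, where DESeq2 called 0.0183% of all genes with an adjusted p, and they had 6 and 3 at an unadjusted p under 0.05, against 4.16% and 3.7% of the genes that edgeR tested. In 5 lincRNAs, Miat, B230354K17Rik, Gm3764, Zfp469 and AC163032.1, the 3 libraries of one group all lay above the 3 of the other, against 8.6% of all genes tested. Of these, 2 were higher (all genes, 4.88%) and 3 lower (all genes, 3.73%). The log2 fold changes had a median of -0.03 with 38 higher and 40 lower, beside a median of 6.6e-05 over all genes tested. Their size had a median of 0.196, beside 0.160 for all genes tested. It was 0.141 for the 7217 protein-coding genes whose counts lay between the 10th and 90th percentile of the list. Those genes share a range of counts with the list but were not matched to it. The median SE was 0.268 for the list and 0.195 for them, so the sizes are not directly comparable.

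**Figure D2:**
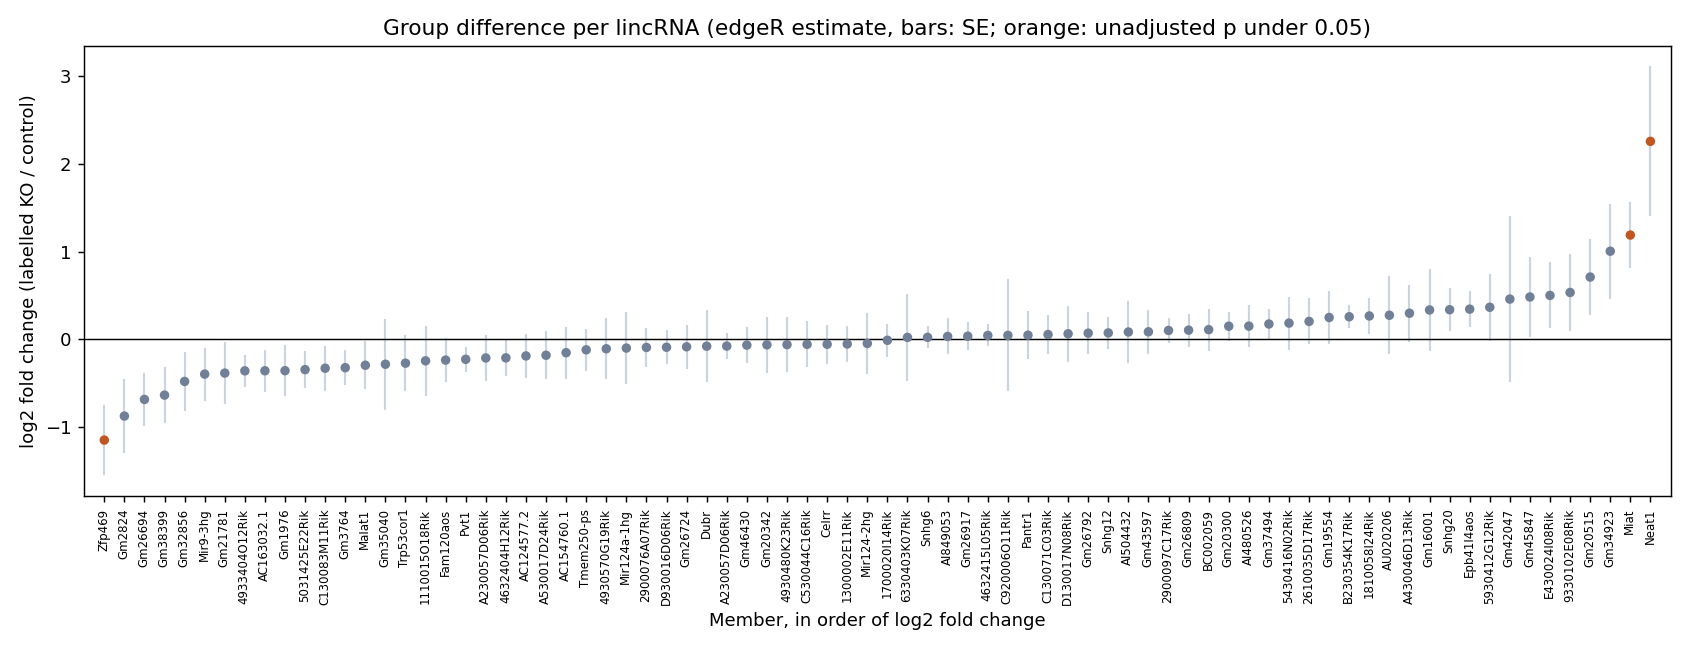
Log2 fold change (labelled KO over control) of each lincRNA with its SE, from edgeR, in order of size. Orange points are the 3 with an unadjusted p under 0.05, Zfp469, Miat and Neat1; none passed after adjustment over all genes.

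Same-numbered control and labelled knockout libraries deviated together across genes, and the replicate number was therefore also fitted as a block. With the block, edgeR called 0 of the 78, with 14 at an unadjusted p under 0.05 against 12.5% of all genes. DESeq2 with the block called 3 of the 78, Miat higher and Gm2824 and Gm26694 lower, against 3.56% of the 13044 genes with an adjusted p. In 28 of the 78 the 3 same-numbered pairs all differed in the same direction, beside 36.0% of all genes.

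Miat showed the clearest difference of the 78. Its CPM were 82.6, 53.9 and 36.0 in controls 1 to 3, and 188, 86.5 and 118 in the knockout-labelled libraries. The groups did not overlap, although the lowest knockout-labelled library, number 2, was close to control 1. The means were 57.5 ± 23.5 and 131 ± 52.0 CPM (SD, n = 3 each). The log2 fold change of 1.19 (SE 0.37) had an unadjusted p of 0.0150 and an adjusted p of 0.998 in edgeR, and the unadjusted p was 0.0517 without library 1 labelled knockout. With the replicate block the adjusted p was 0.108 in edgeR and 3.0e-06 in DESeq2, and the 3 same-numbered pairs differed by 1.19, 0.68 and 1.72 on the log2 scale. DESeq2 with the block also called Miat with number 1, 2 or 3 left out (adjusted p = 0.0137, 4.8e-11 and 0.0119). Each of those fits had only 2 libraries a group, so their p-values rest on little information about the spread. The share of all genes called in them is not given here. The authors' deposited table lists Miat at a log2 ratio of -1.19 for control over knockout, adjusted p = 0.412. The nearest tested protein-coding gene that does not overlap it, Tpst2, differed by a log2 fold change of 0.05 (SE 0.21).

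Markers of differentiating cells were mostly on the higher side too, and none passed edgeR's test after adjustment. The summed CPM of 10 oligodendrocyte lineage markers was 856, 1078 and 984 in controls and 1365, 1094 and 1543 in the knockout-labelled libraries, with 8 of 9 tested markers higher and 7 of the 9 at an unadjusted p under 0.05, beside 3.47% of all genes. In number 2 this sum was nearly level. The summed CPM of 7 neuroblast markers was 294, 227 and 213 against 435, 303 and 285, with 4 of 6 tested markers higher, and control 1 lay above library 3 labelled knockout. All 7 astrocyte markers were on the higher side, with 1 at an unadjusted p under 0.05 in edgeR. All 7 mitosis markers were on the lower side, with 0 at that level. Of 6 neural stem cell markers, 3 were higher and 3 lower. The part of any of these cell types in the value of Miat was not tested.

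Gm2824 and Gm26694 were the other lincRNAs called by DESeq2 with the block, both lower in the knockout-labelled libraries. Gm2824 stood at 15.7, 16.9 and 7.44 CPM in controls and at 9.82, 7.95 and 4.07 CPM in the knockout-labelled libraries. The groups overlapped, because control 3 was lower than libraries 1 and 2 labelled knockout, but each library labelled knockout was lower than the control of its number. Its log2 fold change was -0.87 (SE 0.42), with an adjusted p of 0.998 in edgeR and of 0.0329 in DESeq2 with the block. With number 1, 2 or 3 left out the DESeq2 call was lost, at adjusted p of 0.490, 0.489 and 0.456, with log2 fold changes of -0.99, -0.76 and -0.88.

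Gm26694 stood at 17.8, 26.0 and 17.5 CPM in controls and at 10.1, 18.1 and 9.97 CPM in the knockout-labelled libraries. The groups overlapped through library 2 labelled knockout, and again each pair differed in the same direction. Gm26694 had a log2 fold change of -0.68 (SE 0.30), with an adjusted p of 0.998 in edgeR and 0.0404 in DESeq2 with the block, which was lost with any number left out (adjusted p from 0.187 to 0.751, log2 fold changes of -0.67, -0.81 and -0.67). Gm26694 spans 169891 bases of chromosome 17 and overlaps 19 other genes of the table. One of them, Wdr90, stood at 40.3, 69.9 and 34.6 CPM in controls and 28.1, 34.7 and 20.5 CPM in the knockout-labelled libraries, and it was lower within each number too. Wdr90 is only 1 example, and the levels of the other overlapping genes are not given here. Some of them had more counts over the 6 libraries, such as Pigq with 12581 against 4062 for Wdr90. Whether reads of Wdr90, which lies on the opposite strand, or of any other of these genes entered the count of Gm26694 was not tested.

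The size of the difference in Neat1 and Zfp469 depended on 1 library each. Neat1, the scaffold of nuclear paraspeckles, had CPM of 10.1, 5.12 and 4.64 in controls and 7.01, 73.5 and 14.3 in the knockout-labelled libraries. Library 2 labelled knockout was far above the others, and library 1 was lower than control 1, so the groups overlapped. The log2 fold change of 2.25 (SE 0.85, unadjusted p = 0.0327, adjusted p = 0.998, edgeR) was 0.69 (unadjusted p = 0.193) without library 2 labelled knockout. In limma-voom it was 1.61 (unadjusted p = 0.136), and with the replicate block 1.67 in edgeR (unadjusted p = 0.107) and 1.64 in DESeq2 (adjusted p = 0.669). DESeq2 with the block called Neat1 with number 1 left out (2.75, adjusted p = 9.7e-07), but not with number 2 or 3 left out (0.55 and 1.66). Those fits had only 2 libraries a group. Malat1, which lies 22035 bases from Neat1 and is known from nuclear speckles, was not high in that library, at 1164 CPM against 1213, 1500 and 2212 CPM in controls and 1205 and 1649 CPM in the other two. Its log2 fold change was -0.29 (SE 0.27), and -0.01 without control 3.

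Zfp469 stood at 5.52, 14.6 and 6.58 CPM in controls and at 3.83, 3.77 and 4.47 CPM in the knockout-labelled libraries. All controls were above all knockout-labelled libraries, and control 2 was more than its group's other members together. Its log2 fold change was -1.15 (SE 0.40, unadjusted p = 0.0238, adjusted p = 0.998, edgeR), and -0.59 (unadjusted p = 0.0792) without control 2.

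**Figure D3:**
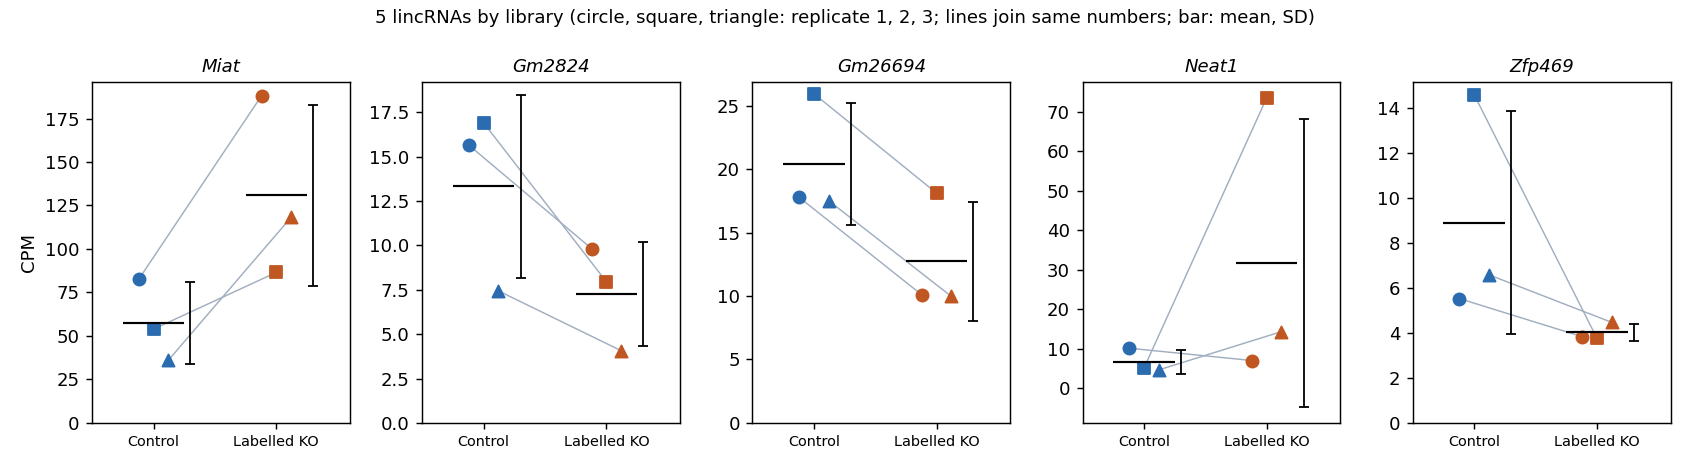
CPM of Miat, Gm2824, Gm26694, Neat1 and Zfp469 by library, with each group's mean and SD. Blue is control, orange is labelled KO, marker shape is the replicate number, and grey lines join libraries of the same number. The 3 lines of Miat rise and those of Gm2824 and Gm26694 fall, while 1 library sets the group mean of Neat1 and of Zfp469.

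Gm42047 had the widest spread among the abundant lincRNAs, and it did not follow the groups. It is annotated on the plus strand of chromosome 8 from 121833247 to 121841178. Its counts were 6366, 6103 and 54182 in controls 1 to 3 and 10726, 43838 and 35228 in the knockout-labelled libraries. Control 3 and libraries 2 and 3 labelled knockout were high and the other 3 libraries low, with a 9.44-fold range among the controls alone. Gm42047 had a log2 fold change of 0.46 (SE 0.95, adjusted p = 0.998, edgeR), and 2.33 (unadjusted p = 0.00993) without control 3.

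The reads of Gm42047 cannot be assigned to this locus with certainty. Of its 4988-nucleotide longest transcript, 4781 nucleotides (95.9%) were at least 95% identical, in stretches of 100 or more, to transcripts of 9 other genes. Among these, AC153370.2 on chromosome 10 had 23, 15 and 113 counts in controls and 15, 91 and 74 in the knockout-labelled libraries. Gm43549 on chromosome 3 had 11, 22 and 102 counts and then 15, 84 and 62. AC153548.1 had 2, 2 and 12 counts and then 1, 11 and 10, and AC141438.1 had 0, 0 and 5 and then 0, 8 and 2. In these 4, on chromosomes 3, 9 and 10, the same 3 libraries were high as for Gm42047. Gm46349 on chromosome 12, with 893 shared nucleotides, did not follow this order, at 1, 5 and 3 counts and then 0, 6 and 4. Sos2, with 275 shared nucleotides, ran from 1163 to 1398 counts. Its neighbour Klhdc4, which starts 3678 bases away on the other strand, was flat, at 28.1, 31.7 and 28.2 CPM and then 29.2, 25.2 and 27.9 CPM. The summed CPM of 7 astrocyte markers was also highest in those 3 libraries, at 2674, 1697 and 3529 in controls and 2642, 3540 and 5083 in the knockout-labelled libraries. The part of these markers in the level of Gm42047 was not tested.

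Counted together, the 78 lincRNAs took 0.571 ± 0.174% of the counts in controls and 0.577 ± 0.087% in the knockout-labelled libraries (SD, n = 3 each; 2-sided exact permutation p = 1.0, where the smallest p that 3 against 3 allows is 0.1). The share was highest in control 3, at 0.770% of its counts, and Gm42047 alone took 0.303%. Without Malat1 and Gm42047 the shares were 0.283 ± 0.031% and 0.272 ± 0.019% (exact p = 0.7).

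The 3 miR-9 hosts were all abundant and unequal. Gm3764, host of Mir9-1, stood at 873, 910.3 and 799.9 CPM in controls and 781.5, 528 and 758 CPM in the knockout-labelled libraries. The groups did not overlap, but library 2 labelled knockout was much lower than the other two. The log2 fold change was -0.32 (SE 0.20, unadjusted p = 0.143, adjusted p = 0.998, edgeR) and -0.16 without that library. C130071C03Rik, host of Mir9-2, stood at 137, 177 and 103 CPM and then 135, 171 and 128 CPM, and Mir9-3hg at 104, 179 and 85.9 CPM and then 77.2, 120.2 and 82.9 CPM, so that both were highest in the libraries of number 2. Their log2 fold changes were 0.06 (SE 0.22) and -0.39 (SE 0.30), neither past the test. Per kilobase, Gm3764 supplied 75.8%, 68.4% and 78.4% of the 3 hosts' level in controls and 76.4%, 61.1% and 75.8% in the knockout-labelled libraries. Summed, the hosts reached 1123 ± 139 CPM in controls and 927 ± 94.2 CPM in the knockout-labelled libraries (SD, n = 3 each; 2-sided exact permutation p = 0.2, unpaired). The sum was lower in the knockout-labelled library of each number, at 1114 against 993.5, 1266 against 819.3 and 988.8 against 968.4 CPM. Host transcripts were counted here, and mature miR-9 was not.

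Gm35040 begins 1639 bases beyond the end of Mir9-3hg on the same strand of chromosome 7. It stood at 62.0, 109 and 42.0 CPM in controls and 53.8, 96.4 and 24.6 CPM in the knockout-labelled libraries, and like Mir9-3hg it was highest in both libraries of number 2. The summed CPM of 7 mitosis markers, 1172, 2207 and 766 in controls and 543, 1417 and 365 in the knockout-labelled libraries, was highest in the same pair. 6330403K07Rik, which RefSeq lists as protein-coding, had that pattern too, at 4.26, 8.83 and 5.27 CPM and then 4.42, 10.8 and 3.50 CPM. The libraries of number 2 were the highest and second-highest in 9 of the 78, beside 2181 of the 15087 genes tested, so this order was not particular to the lincRNAs. Gm20515, which lies on the opposite strand within Sox2ot, had its lowest value in control 2, at 10.2, 4.31 and 12.8 CPM and then 13.1, 10.6 and 20.8 CPM. The log2 fold change of Gm20515 was 0.71 (SE 0.43, adjusted p = 0.998, edgeR), and that of Sox2ot was 0.80 (SE 0.33, adjusted p = 0.998), and where their exons overlap reads cannot be assigned to one of them. The part of dividing cells in these levels was not tested.

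**Figure D4:**
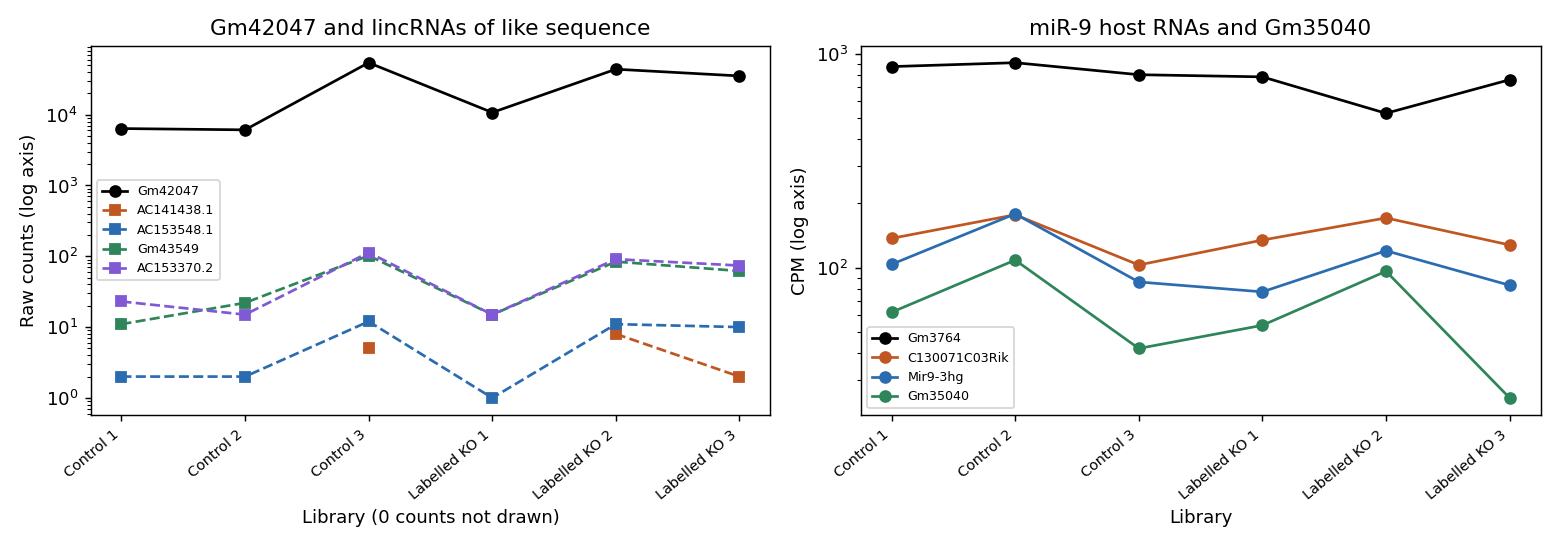
Left, raw counts of Gm42047 and 4 lincRNAs of like sequence in the 6 libraries (log axis, 0 counts not drawn). Only lincRNAs with at least 5 counts in control 3 were drawn, so a level in control 3 was a condition of being shown. Control 3 and the libraries 2 and 3 labelled knockout (KO) are high in all 5. Gm46349, with 3 counts in control 3, is not drawn and did not follow this order. Right, CPM (log axis) of the 3 miR-9 hosts and Gm35040; C130071C03Rik, Mir9-3hg and Gm35040 are highest in the libraries of number 2, and Gm3764 is lowest in library 2 labelled KO.

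Among the RNAs with a known role, most differed little. The 4 hosts of small nucleolar RNAs, which guide chemical modification of ribosomal RNA from the introns of their hosts, were all on the higher side, with 0 at an unadjusted p under 0.05. Snhg6, which overlaps a protein-coding gene, stood at 36.2, 36.6 and 32.8 CPM and then 37.3, 35.9 and 34.2 CPM, with the 6 libraries within a 1.14-fold range. Snhg12 (15.4 ± 2.16 and 16.2 ± 1.48 CPM), Snhg20 (14.8 ± 2.45 and 18.7 ± 5.19 CPM) and Epb41l4aos (10.1 ± 1.08 and 12.8 ± 1.86 CPM; SD, n = 3 each) likewise did not pass the test. Over the 16 tested genes of the snoRNA host list, which reached beyond the 78, 13 were on the higher side and 3 on the lower, with a median log2 fold change of 0.10 and 0 at an unadjusted p under 0.05 in edgeR.

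The abundant cytoplasmic RNAs had small log2 fold changes. 2900097C17Rik (Norad) stood at 281, 238 and 283 CPM in controls and 318.5, 262 and 280.5 CPM in the knockout-labelled libraries, a log2 fold change of 0.10 (SE 0.14). 1700020I14Rik (Cyrano) stood at 167, 200.1 and 134 CPM and then 195, 157 and 145 CPM, a log2 fold change of -0.01 (SE 0.19). Of the 7 tested genes of the cytoplasmic and stress-linked list, 3 were higher and 4 lower, with 0 at an unadjusted p under 0.05. Norad shares 2529 of its nucleotides with Gm7292, at 95% identity or more, but that copy had 2 to 11 counts per library.

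Among neural lineage RNAs, Pantr1, which is transcribed away from the start of the POU factor gene Pou3f3 at a distance of 926 bases, stood at 65.6, 89.2 and 56.4 CPM in controls and 50.3, 97.6 and 70.7 CPM in the knockout-labelled libraries. Its log2 fold change was 0.05 (SE 0.27), and that of Pou3f3 was -0.01 (SE 0.16). Of the 13 tested genes of the neural lineage list, 8 were on the higher side and 5 on the lower. In edgeR 3 of them had an unadjusted p under 0.05, among them Miat and Neat1, beside 3.47% of all genes tested. The list was drawn up with earlier results of these data known, and the size of the Neat1 difference rested on 1 library. Mir124-2hg, from the list of microRNA hosts, is a host of the neuronal microRNA miR-124 and stood at 19.7, 26.5 and 9.85 CPM and then 19.4, 19.4 and 15.5 CPM, a difference that took either sign across the alternatives. Of the 9 tested genes of that list, 4 were on the higher side and 5 on the lower, with 0 at an unadjusted p under 0.05. Gm3764, the host of Mir9-1, was not on that list, and it was on the lower side (log2 fold change -0.32).

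Pvt1, which starts 52595 bases downstream of Myc and shares its amplification in tumours, stood at 46.5 ± 4.21 CPM in controls and 39.7 ± 4.38 CPM in the knockout-labelled libraries (SD, n = 3 each). Its log2 fold change was -0.23 (SE 0.14) and that of Myc -0.21 (SE 0.13). Trp53cor1, known as lincRNA-p21 and induced by p53, stood at 15.99, 15.2 and 18.5 CPM and then 7.66, 18.4 and 15.1 CPM. Cdkn1a, the cell cycle inhibitor whose start lies 12018 bases away, was at 657, 381 and 1513 CPM and then 506, 713 and 986 CPM. Of the 3218-nucleotide longest transcript of Trp53cor1, 1584 nucleotides (49.2%) were shared with 2 other genes at 95% identity or more. Whether reads of those genes entered its count was not tested. Gm26917, on the list of ribosomal RNA-like loci, stood at 29.1 ± 2.61 and 29.9 ± 3.94 CPM (SD, n = 3 each).

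The other lincRNAs with the smallest unadjusted p on each side had log2 fold changes from -0.63 (Gm38399) to 1.004 (Gm34923). Gm34923 stood at 6.85, 3.82 and 1.95 CPM in controls and 12.95, 4.54 and 7.79 CPM in the knockout-labelled libraries, higher within each number although the groups overlapped. B230354K17Rik, which starts 145 bases from Cdc5l on the other strand, stood at 39.7, 43.4 and 41.7 CPM and then 43.8, 53.3 and 52.3 CPM, and its groups did not overlap by a narrow margin. E430024I08Rik went from 13.6 ± 4.19 to 19.2 ± 7.61 CPM. On the lower side, Gm38399 went from 11.4 ± 2.69 to 7.37 ± 2.48 CPM, 4933404O12Rik from 27.9 ± 4.19 to 21.8 ± 3.59 CPM and 5031425E22Rik from 28.4 ± 6.48 to 22.4 ± 3.32 CPM (SD, n = 3 each). Gm38399 lies within Nav1 on the same strand, and Nav1 stood at 375, 445 and 289 CPM and then 327, 363 and 248 CPM, so the reads of this RNA are uncertain. None of these passed edgeR's test after adjustment over all genes (adjusted p = 0.998 for each).

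Spread between libraries was wide for many of the 78. The ratio of the highest to the lowest library reached 2-fold or more in 32 of them (41.0%), beside 25.3% of the 7217 protein-coding genes whose counts lay between the 10th and 90th percentile of the list, and 37.7% of all genes tested. It reached 4-fold or more in 9, namely Neat1, Gm42047, Gm34923, C920006O11Rik, Miat, Gm20515, Gm35040, Gm45847 and Gm2824. It stayed under 1.5-fold in 19. The highest library was control 2 in 22 of the 78 and library 3 labelled knockout in 17, and any other library in 7 to 12. In 26 of the 78 (33.3%) the libraries with the highest and second-highest level carried the same replicate number, beside 37.9% of all genes tested. The lowest and second-lowest did so in 34 of the 78 (43.6%), beside 34.2%.

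The protein-coding genes next to the lincRNAs had the same direction as the lincRNA in about as many pairs as the opposite one. Of 51 lincRNAs with a tested, non-overlapping protein-coding gene whose start lay within 50 kilobases, 26 (51.0%) had a log2 fold change of the same sign as that gene, beside 656 of 1187 (55.3%) for the other non-coding genes tested. None of the 51 neighbours had an unadjusted p under 0.05 in edgeR, and 0 had an adjusted p under 0.05. Of 15 pairs that started within 5 kilobases of each other and ran in opposite directions, 7 had the same sign. Gm16001 and Ogfod2, which start 33 bases apart, ranged alike over the libraries: Gm16001 stood at 8.28, 3.55 and 10.7 CPM and then 9.44, 5.62 and 13.4 CPM, and Ogfod2 at 14.7, 9.53 and 16.1 CPM and then 17.3, 11.8 and 19.03 CPM. Control 2 was lowest for both and library 3 labelled knockout highest. The opposite order also occurred: 4933404O12Rik stood at 25.1, 32.7 and 25.8 CPM and then 19.4, 25.9 and 20.0 CPM, and Ift22, which starts 10996 bases away, at 18.99, 13.2 and 15.8 CPM and then 21.7, 16.4 and 21.55 CPM. Control 2 was highest for the lincRNA and lowest for Ift22.

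**Figure D5:**
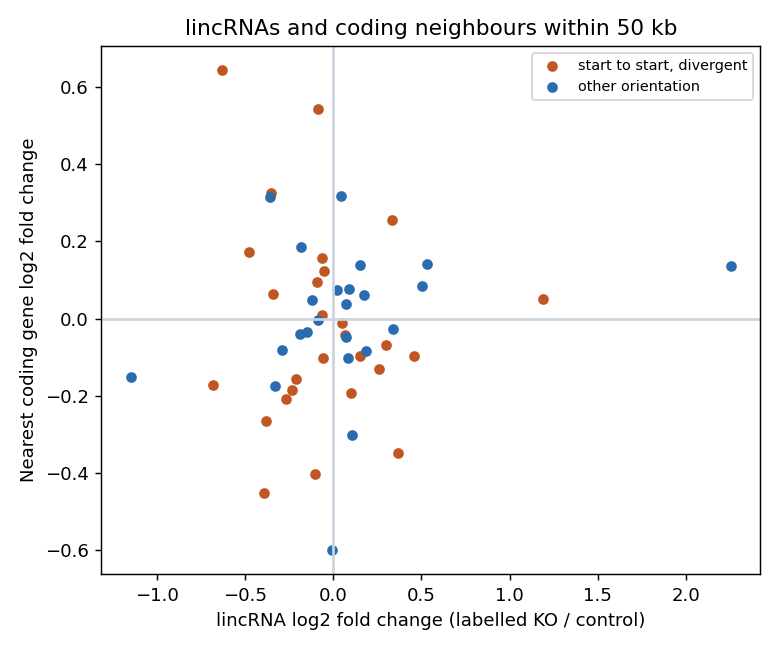
Log2 fold change (labelled KO over control, edgeR) of each of 51 lincRNAs and of its nearest tested protein-coding gene within 50 kilobases. Orange pairs are transcribed away from each other. The points fill all 4 quadrants, with 26 pairs of the same sign.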

How the data were processed

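Bulk RNA-seq of 3 control and 3 labelled knockout libraries was used as deposited: raw whole-number counts per gene, per the file headers. The authors' deposited table also holds a log2 ratio (control over knockout) and an adjusted p-value per gene. The submitters' processing notes list HISAT2 2.1.0, Bowtie2 2.2.3 and mm10, and the labels' protocols a NEBNext Ultra RNA kit, which does not mark strand. For the counting tool, its annotation, reads with several matches and poly(A) selection: not given in the sources used here.

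Groups came from the labels. The main test was edgeR 4.0.16 under R 4.3.3, with limma 3.58.1 installed: TMM scaling, filterByExpr (minimum count 10, minimum total 15), glmQLFit and glmQLFTest on all 6 libraries, with Benjamini-Hochberg adjustment over 15087 genes at 0.05; SE were taken from the test statistic. CPM use TMM-scaled library sizes, on which 1 CPM is 16.7 to 18.6 counts. The fits were tested on simulated data. Alternatives were DESeq2 1.42.0, limma-voom, other scalings and filters, the replicate block, other count minimums and each library left out; DESeq2 with the block and 1 number left out was chosen after seeing the data. The replicate numbers come from the titles; less their group means, numbers 1 to 3 had correlations of 0.43, 0.35 and 0.51 across genes, so the numbers were taken as pairs.

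Members and lists were chosen with earlier results of these data known. Named lincRNAs were those past edgeR's threshold (0), the 10 with the highest mean CPM, the 8 with the smallest p on each side, the 3 most abundant of each role list, and those DESeq2 called with the block, 28 in all; other names were chosen after their values were seen. Exon lengths and transcripts came from GENCODE M21 (GRCm38), in which 77 of the 78 were found, 72 with the same bounds. Overlaps were read from the deposited gene coordinates, and microRNAs came from RefSeq (GRCm38.p6). Shared sequence was sought with blastn in stretches of at least 100 nucleotides at 95% identity. Of 77 lincRNAs searched, 14 shared more than 10% of their longest transcript with other genes. Among them were Gm42047, 2900097C17Rik, Trp53cor1, E430024I08Rik (35.4%), B230354K17Rik (20.05%) and Gm26694 (15.2%), so their counts may not be particular to 1 locus.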

Additional observations from a re-analysis of the deposited data

How the results depend on the processing

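The count of lincRNAs called was 0 under every alternative except DESeq2 with the replicate block, which gave 3, and 1 to 2 with 1 number left out of that fit. The count at an unadjusted p under 0.05, 3 in edgeR, was 6 in DESeq2, 14 in edgeR with the replicate block, 12 in DESeq2 with the replicate block, 5 to 8 in that fit with 1 number left out, and 1 to 8 with 1 library left out. The replicate block changed no other call. Of all genes tested, 3.47% were under 0.05 before adjustment in edgeR and 12.5% in edgeR with the block. In DESeq2 without the block it was 4.16% of the genes that edgeR tested. For DESeq2 with the block, and with a number or a library left out, that share of all genes is not given here. The share of all genes called with a number left out is not given either. The counts from those fits therefore cannot be set against a background. The median log2 fold change was 0.029 at a minimum of 1200 counts and ran from -0.073 to 0.013 with 1 library left out. The count with groups apart, 5, was 3 at a minimum of 1200 counts and 3 among lincRNAs that overlap no other gene. The difference in the share of counts (labelled knockout minus control), 0.0055 percentage points and the same within the replicate block, ran from -0.056 to 0.105 with 1 library left out and was negative without control 1 (-0.056), control 2 (-0.032) or library 2 (-0.019) or 3 (-0.020) labelled knockout. Same-sign neighbours numbered 11 of 23 within 10 kilobases, 16 of 29 at a minimum of 1200 counts and 17 of 28 where the lincRNA overlaps no other gene. The cause of these shifts was not tested; the last 3 start from fewer lincRNAs. Small differences changed sign among the named lincRNAs. With 1 library left out the log2 fold change ran from -0.142 to 0.142 for 1700020I14Rik, -0.115 to 0.267 for C130071C03Rik, -0.047 to 0.137 for Gm26917, -0.843 to 0.166 for Gm35040, -0.346 to 0.292 for Mir124-2hg, -0.213 to 0.258 for Pantr1, -0.036 to 0.158 for Snhg12 and -0.019 to 0.058 for Snhg6. Mir124-2hg was 0.053 in limma-voom, 0.048 in edgeR with the replicate block and 0.052 in DESeq2 with the replicate block. In the last fit without number 1 it was 0.089. Without number 2 that fit gave 0.315 for Mir124-2hg, 0.175 for 1700020I14Rik, -0.089 for Gm26917, -0.025 for Pantr1 and -0.0030 for Snhg12. Without number 3 it gave -0.040 for C130071C03Rik, -0.022 for Gm26917 and -0.128 for Pantr1. At 3 libraries a group, the SE of the log2 fold change had a median of 0.27 in edgeR.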
